A study of Mus musculus with 6 samples.

Results

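The genes described are 10 that mark or direct the trophectoderm: the transcription factors Tead4, Cdx2, Eomes, Gata3 and Tfap2c, the growth factor receptor Fgfr2, the simple epithelial keratins Krt8, Krt18 and Krt19, and the surface protein Plet1. They were taken as every probe set of the array whose platform symbol was one of these names. Each of the 10 names had 1 probe set, so 10 of the 19938 genes tested were followed. They were measured in mouse embryonic stem (ES) cells on Affymetrix Mouse Gene 1.0 ST arrays, which carry several probes spread over each gene, with 1 array for each of 6 samples. The cells were female, of a mixed C57BL/129 background, had been derived in 2i, and were grown on laminin in N2B27 medium with LIF and 2i (small molecules that block differentiation signals and keep the cells naive). In 3 samples the genotype was Scc1 lox/lox ERT2-Cre, in which lox sites flank both copies of Scc1, and in 3 it was Scc1 wt/wt ERT2-Cre. All 6 samples had received 4-hydroxytamoxifen (4-OHT) for 24 h, which brings the ERT2-Cre recombinase into the nucleus. Its dose is 80 nM in the sample labels, whereas the design text gives the same figure in mM. Both genotypes therefore carried the recombinase and the drug, and untreated cells were not analysed here, so the loss of Scc1 and any older difference between the lines cannot be told apart.

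Trophectoderm is the outer epithelium of the blastocyst, from which the trophoblast of the placenta forms, and ES cells come from the inner cells that do not take this path. In the outer cells Tead4, bound by the Hippo pathway cofactor Yap1, switches on Cdx2 and Gata3, while Oct4 and Cdx2 hold each other down. Eomes and Cdx2 then keep trophoblast stem cells dividing under Fgf4, which is read through Fgfr2, and Krt8 and Krt18 assemble into the first keratin filaments of the embryo.

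Tfap2c, Tead4, Gata3 and Plet1 were lower in lox/lox cells, Fgfr2 and Krt19 were higher, and Cdx2, Eomes, Krt8 and Krt18 did not pass the test. Changes that passed were moderate, between 1.45-fold (Plet1) and 1.83-fold (Tfap2c). Of all 19938 genes, 6.16% passed at a Benjamini-Hochberg adjusted p under 0.05 in limma, 2.55% as higher and 3.61% as lower. Of these 10 genes, which were chosen with earlier results of these data known, 6 passed, 2 as higher and 4 as lower. The background share is larger among brighter genes. When genes with a mean at or below the median of all values were left out, 1425 of 11400 genes passed, and 9 of these 10 were still tested. The 10 genes had a median log2 change of -0.05 and a median absolute change of 0.57, beside -0.0079 and 0.09 over all genes. In the same 6 genes the 3 arrays of one genotype lay wholly above those of the other, which was seen in 22.8% of all genes (12.7% with lox/lox below and 10.1% with lox/lox above).

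The sequence before the transcription start is shown for the 3 genes with a change for which the RefSeq promoter table (build GRCm38.p6) had an entry, to show which factor motifs lie ahead of genes that fell (Gata3, Plet1) and rose (Fgfr2). Of the 10 genes, 7 had an entry, and Tead4, Tfap2c and Krt19 are named only. Each run is the 250 bases before the start, 5′ to 3′ on the gene's strand, and capitals mark matches to any of 4 motifs on either strand. Each window belongs to the start that the table lists. For Gata3 this start lies inside the annotated gene, ahead of an internal transcript start, whereas the windows of Plet1 and Fgfr2 end at the edge of the gene. Gata3 is chr2:9878601-9878850 (minus strand), Plet1 chr9:50494275-50494524 (plus strand) and Fgfr2 chr7:130266809-130267058 (minus strand).
Gata3: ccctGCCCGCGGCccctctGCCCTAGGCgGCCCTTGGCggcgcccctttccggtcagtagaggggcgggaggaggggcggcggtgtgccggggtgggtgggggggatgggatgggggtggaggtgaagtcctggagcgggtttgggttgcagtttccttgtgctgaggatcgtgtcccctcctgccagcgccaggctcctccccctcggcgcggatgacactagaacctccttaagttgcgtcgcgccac
Plet1: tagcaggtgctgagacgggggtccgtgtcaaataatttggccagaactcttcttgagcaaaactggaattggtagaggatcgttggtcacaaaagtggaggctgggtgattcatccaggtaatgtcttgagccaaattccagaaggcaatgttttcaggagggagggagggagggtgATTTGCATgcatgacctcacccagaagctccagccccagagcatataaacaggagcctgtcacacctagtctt
Fgfr2: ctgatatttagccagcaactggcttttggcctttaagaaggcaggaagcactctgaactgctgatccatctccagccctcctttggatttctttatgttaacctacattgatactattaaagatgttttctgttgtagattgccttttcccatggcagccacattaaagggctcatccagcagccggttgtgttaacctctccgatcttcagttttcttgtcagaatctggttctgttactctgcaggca

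The motifs were GGAATG of TEAD factors, AGATAA of GATA factors, GCCNNNGGC of AP-2 factors such as Tfap2c, and the octamer ATGCAAAT of POU factors such as Oct4. No motif contains another. Over 32851 promoter windows of the same length, 12.6% held the TEAD motif, 9.99% the GATA motif, 13.7% the AP-2 motif and 1.6% the octamer. Gata3 held 3 matches to the AP-2 motif, all in the outer part of a window with 70% G and C. Plet1 held 1 octamer, written here as its reverse complement ATTTGCAT, from base -73 to -66, and Fgfr2 held no match to the 4 motifs. Among the genes without a change, Cdx2 held the octamer from base -147 to -140 and 1 AP-2 match, Krt18 held 1 AP-2 match, Krt8 held 1 GATA match, and Eomes none. These matches describe letters only.

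The targeted gene was read first. Scc1 is the older name of Rad21, whose protein closes the cohesin ring, and its wt/wt mean was 10.02 ± 0.03 and its lox/lox mean 6.09 ± 0.04 (log2 intensity ± SD, n = 3; adjusted p = 1.57e-09 in limma), so the 6 arrays matched their labels. All 10 ES cell markers listed lay above the median of all values (4.90) in both genotypes. Of 2 defining trophoblast markers, Elf5 stood at 3.80 and 3.72 in wt/wt and lox/lox cells, under that median, and Hand1 at 5.66 and 5.76. Array medians lay between 4.85 and 4.94. On the first component of the deviations within genotypes, wt/wt replicate 2 (0.58) and lox/lox replicate 3 (0.54) lay at the positive end. The other arrays ran from -0.47 (wt/wt replicate 1) to -0.10 (wt/wt replicate 3). The arrays at the positive end are called those that stood apart, although wt/wt replicate 1 lay nearly as far out at the opposite end. Probe sets of different genes are not on 1 scale, so the median of all values serves only as a rough mark of a dim signal, no gene is ranked against another by level, and intensities summed over a list are compared between arrays only. In these bulk samples fewer cells of a type and less RNA per cell cannot be told apart.

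**Figure D1:**
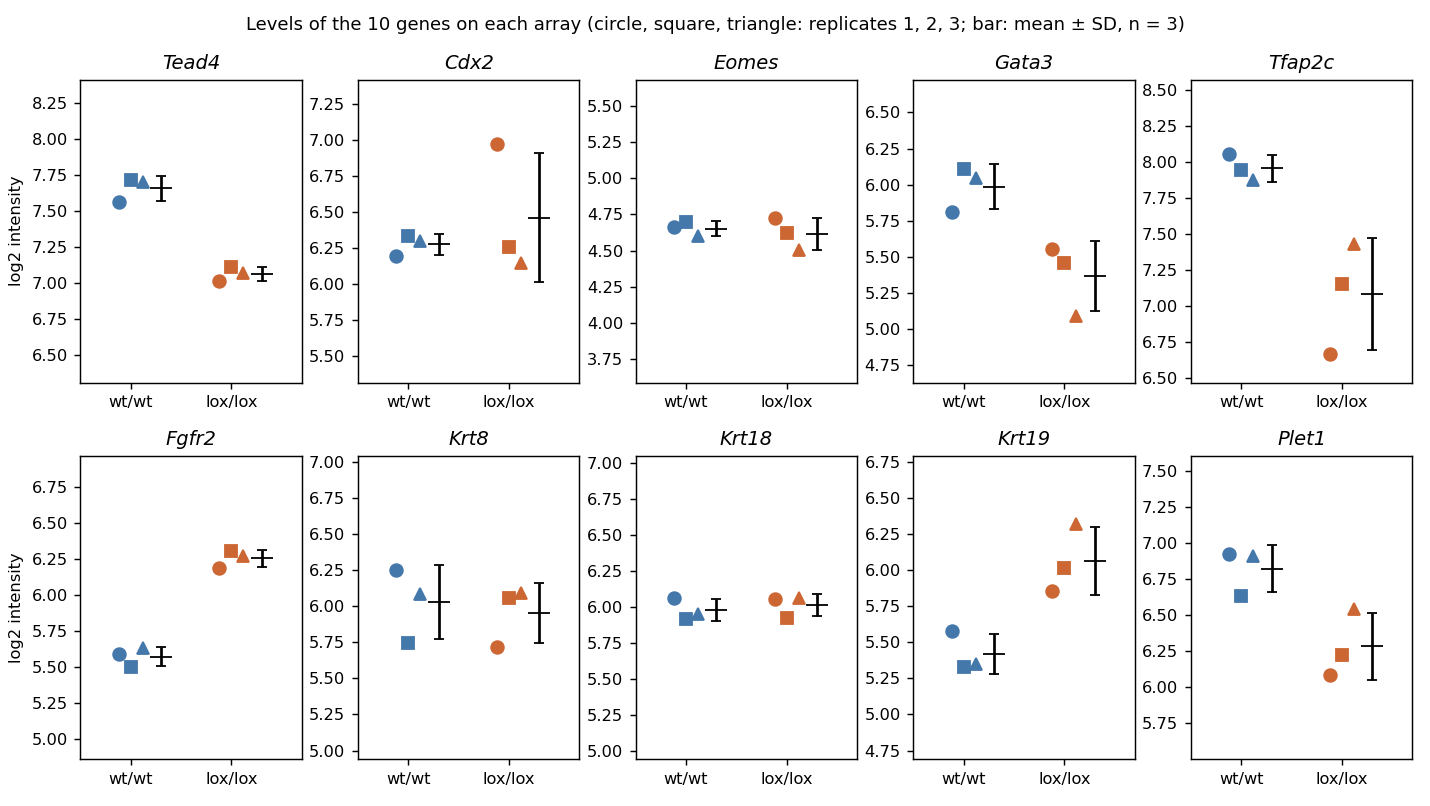
Levels of the 10 genes on each of the 6 arrays. The y axis of each panel is log2 intensity over a span of equal length, colours are the genotypes, symbols the replicates, and bars the mean ± SD (n = 3). The lox/lox arrays lie wholly below the wt/wt arrays for Tead4, Gata3, Tfap2c and Plet1, and wholly above them for Fgfr2 and Krt19. For Cdx2, Eomes, Krt8 and Krt18 the ranges of the genotypes overlap.

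Tead4, the transcription factor at the top of the trophectoderm programme, was lower in lox/lox cells with little spread. Across replicates 1 to 3, in which order all values are given, its log2 intensity was 7.56, 7.71 and 7.70 for wt/wt and 7.01, 7.11 and 7.07 for lox/lox cells. The lowest wt/wt array thus lay well above the highest lox/lox array. It fell by 0.59 on the log2 scale, or 1.51-fold (SE 0.08, 95% interval -0.77 to -0.42, adjusted p = 0.00159 in limma), and passed in all 6 fits that each left out 1 array.

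Tfap2c, which encodes the AP-2 gamma factor of trophectoderm, naive pluripotent cells and germ cells, had the largest change of the 10 genes. It stood at 8.06, 7.94 and 7.87 in wt/wt and at 6.67, 7.15 and 7.43 in lox/lox cells. The lox/lox arrays spread over 0.76, against 0.18 among the wt/wt arrays, but every one of them was lower. The log2 change was -0.87 (SE 0.16, 95% interval -1.23 to -0.51, adjusted p = 0.00991), and it passed in all 6 fits without 1 array. When all 35556 probe sets of the array, named or not, were tested together, its adjusted p was 0.0739.

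Gata3, a zinc finger factor that acts beside Cdx2 in the trophectoderm, was also lower. It stood at 5.81, 6.11 and 6.04 in wt/wt and at 5.55, 5.46 and 5.09 in lox/lox cells. The nearest arrays of the genotypes, wt/wt replicate 1 and lox/lox replicate 1, were closer to each other than the lox/lox arrays were spread. The log2 change was -0.62 (SE 0.13, adjusted p = 0.017). The call was lost without wt/wt replicate 2 (adjusted p = 0.0584), wt/wt replicate 3 (0.075) or lox/lox replicate 2 (0.0512), without both arrays that stood apart (0.0909, log2 change -0.42), and with all probe sets tested (0.0901).

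Cdx2, the homeobox factor that specifies trophectoderm, showed no change that passed, and 1 array decided its mean. It stood at 6.19, 6.33 and 6.30 in wt/wt cells and at 6.97, 6.26 and 6.14 in lox/lox cells. Replicate 1 of lox/lox was the highest of all 6 arrays, whereas replicate 2 lay within the wt/wt range and replicate 3 below it. The log2 change of 0.18 had a 95% interval from -0.21 to 0.58 (adjusted p = 0.689 in limma), and without lox/lox replicate 1 it was -0.073.

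Eomes, the T-box factor that maintains trophoblast stem cells, lay below the median of all values in both genotypes. It stood at 4.66, 4.70 and 4.60 in wt/wt and at 4.72, 4.62 and 4.50 in lox/lox cells. The wt/wt range lay within the lox/lox range. The log2 change was -0.04 (95% interval -0.22 to 0.15, adjusted p = 0.89 in limma), and near the background of an array a true change is understated.

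Fgfr2, the receptor through which trophoblast stem cells read Fgf4, had the smallest p of the 10 genes and was higher. It stood at 5.59, 5.50 and 5.63 in wt/wt and at 6.19, 6.31 and 6.27 in lox/lox cells. The arrays spread over 0.13 within wt/wt and 0.12 within lox/lox, and these ranges were far apart. It rose by 0.68 on the log2 scale, or 1.60-fold (SE 0.08, 95% interval 0.51 to 0.85, adjusted p = 0.000657 in limma), and passed under every alternative tried, each array left out in turn and all probe sets tested included.

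Plet1, a surface protein of early trophoblast, fell by 0.54 (log2; SE 0.13) with an adjusted p of 0.0306. It stood at 6.93, 6.64 and 6.91 in wt/wt and at 6.09, 6.22 and 6.54 in lox/lox cells. The genotypes came closest in wt/wt replicate 2 and lox/lox replicate 3, the arrays that stood apart, and without both of them the log2 change was -0.76 (adjusted p = 0.00826). The call was lost without wt/wt replicate 1 (adjusted p = 0.0764), wt/wt replicate 3 (0.123), lox/lox replicate 1 (0.0996) or lox/lox replicate 2 (0.129), and with all probe sets tested (0.126).

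Of the 3 keratins only Krt19 passed the test. Keratin filaments are built from a type I partner, such as Krt18 or Krt19, and a type II partner, such as Krt8. Krt8 stood at 6.25, 5.75 and 6.09 in wt/wt and at 5.72, 6.06 and 6.09 in lox/lox cells, so each genotype held 1 low array. Its log2 change was -0.07 (95% interval -0.38 to 0.24, adjusted p = 0.866 in limma). Krt18 stood at 6.07, 5.92 and 5.95 in wt/wt and at 6.06, 5.93 and 6.06 in lox/lox cells, a log2 change of 0.04 (95% interval -0.14 to 0.22, adjusted p = 0.883). Krt8 and Krt18 are near neighbours on chromosome 15, which also carries Rad21, with 2 long non-coding RNA genes between them in the gene table.

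Krt19, a short type I keratin of simple epithelia on chromosome 11, was higher. It stood at 5.58, 5.33 and 5.35 in wt/wt and at 5.85, 6.02 and 6.32 in lox/lox cells. All lox/lox arrays were above all wt/wt arrays, and lox/lox replicate 3 was highest. The log2 change was 0.65, or 1.56-fold (SE 0.12, 95% interval 0.37 to 0.92, adjusted p = 0.0115). The call was lost without wt/wt replicate 3 (adjusted p = 0.0569), without both arrays that stood apart (0.0754, log2 change 0.47) and with all probe sets tested (0.0726).

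Whether Krt19 changed more than the other simple keratins was asked of the difference between the genes on each array. The change of Krt19 exceeded that of Krt8 by 0.72 and that of Krt18 by 0.61 on the log2 scale. For both differences the lox/lox arrays did not overlap the wt/wt arrays, and the exact 2-sided permutation p was 0.1, the smallest that 3 against 3 arrays allow. The same p was found for Tead4 against its paralog Tead1 (difference of the changes -0.70) and for Fgfr2 against Fgfr1 (0.51). These 4 differences were chosen after the values were seen, and adjusted over the 4 their p was 0.1. None of the other 45 keratin genes measured passed in limma, against 6.16% of all genes. Of the 45, 2 had an unadjusted p under 0.05 in limma, against 18.0% of all genes. Most were dim, as 14 had a wt/wt mean above the median of all values and 13 a lox/lox mean above it. Near the background of an array a true change is understated, so this list cannot show that the change was particular to Krt19. The log2 changes of the 45 keratins ran from -0.31 to 0.16 with a median of 0.0072. The smallest p among them was that of Krt17, a type I keratin of stratified epithelia (log2 change -0.31, adjusted p = 0.0653), which passed with quantile normalization (0.0495), with dim genes removed (0.0395) and with array weights (0.0467).

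**Figure D2:**
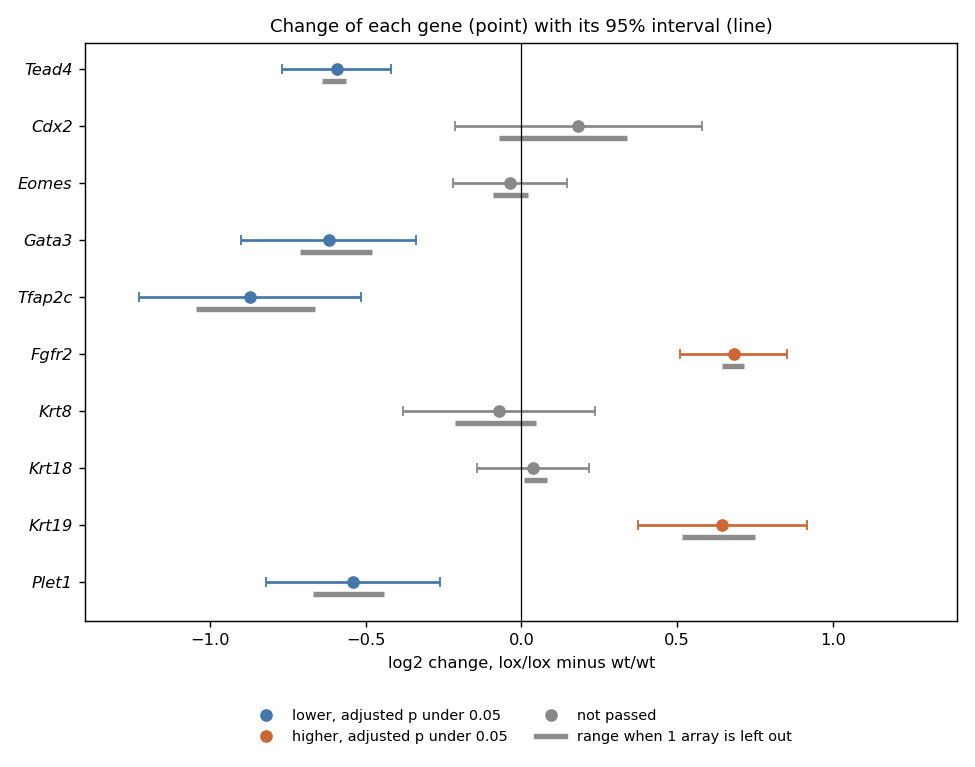
Log2 change of each of the 10 genes, lox/lox minus wt/wt, with its 95% interval from limma as a line and the range over the 6 fits without 1 array as a grey bar. The intervals of Tfap2c, Gata3, Tead4 and Plet1 lie below 0, those of Fgfr2 and Krt19 above 0, and the grey bars of Cdx2, Eomes and Krt8 cross 0.

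Within the lox/lox samples the order of the arrays differed between the genes. Replicate 1 was highest and replicate 3 lowest for Cdx2, Eomes and Gata3, whereas replicate 3 was highest and replicate 1 lowest for Tfap2c, Krt8, Krt19 and Plet1. Replicate 1 held the highest Cdx2, Eomes and Gata3 of its genotype, together with the lowest Tfap2c, Plet1, Krt19, Krt8, Tead4 and Fgfr2. Replicate 3, which stood apart over all genes, held the lowest Gata3 of all arrays, at 5.09. Tead4 and Fgfr2 spread by only 0.10 and 0.12 among the lox/lox arrays, while Cdx2 spread by 0.82. The part of overall array quality in this spread was not tested.

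**Figure D3:**
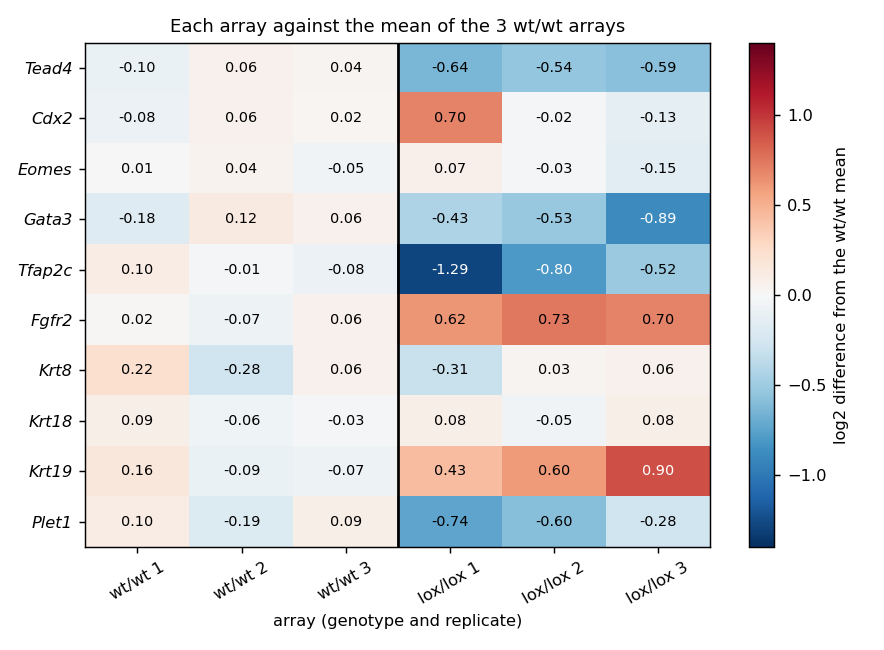
Log2 difference of each array from the mean of the 3 wt/wt arrays, for the 10 genes (rows) on the 6 arrays (columns); blue is lower and red higher. Tead4 and Fgfr2 have nearly 1 shade over the lox/lox arrays, while lox/lox replicate 1 alone is high for Cdx2, at 0.70, and Tfap2c ranges from -1.29 to -0.52.

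By the distance between the 6 values of each gene after its own mean was removed, the genes most like each changed gene were found over all 19938. Tead4 was nearest to Marcksl1, Rab29 and Ddc (distances 0.087, 0.11 and 0.11 on the log2 scale), and Fgfr2 to Plk2, Pnpla7 and Vsig2 (0.07, 0.095 and 0.097). Krt19 was nearest to Ifi30, Epcam and Srl, Gata3 to Cryab, Plekhf1 and Ccn2, Tfap2c to Lrrc31, Ranbp17 and Gpr137b, and Plet1 to Usp3, Susd2 and Lrrc15. With 6 arrays such a ranking is a description.

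The Hippo pathway restrains the cofactors Yap1 and Taz, which act through Tead proteins. Of 19 measured genes of the pathway, 4 fell, none rose and 15 did not pass, a share of 21.1% against 6.16% of all genes, with a median log2 change of -0.11. Wwtr1, which encodes Taz, fell by 0.59 (SE 0.08, adjusted p = 0.00129 in limma), from 7.76, 7.88 and 7.82 in wt/wt to 7.25, 7.16 and 7.26 in lox/lox cells. Ccn1 and Ccn2, secreted matrix proteins widely used as readouts of Tead activity, fell by 0.73 and 0.59 (adjusted p = 0.0122 and 0.0145). Lats2, the kinase that inactivates Yap1 and Taz, fell by 0.35 (adjusted p = 0.0252) from a level near the median of all values. Yap1 itself and Tead1, Tead2 and Tead3, looked up after the others were seen, had log2 changes of -0.08, 0.10, -0.26 and 0.08 and did not pass (adjusted p = 0.697, 0.661, 0.124 and 0.791), except that Tead2 passed with array weights (0.0474). Wwtr1 passed in all 6 fits without 1 array, and the count fell to 1 without lox/lox replicate 2, without lox/lox replicate 3 or without both arrays that stood apart, and to 2 without wt/wt replicate 3. With all probe sets tested it was 1 as well (adjusted p = 0.0789 for Ccn1, 0.0796 for Ccn2 and 0.0721 for Lats2).

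Other genes of trophectoderm and trophoblast stem cells were mostly lower where they changed. Of 18 measured, 7 fell, 1 rose and 10 did not pass (44.4% called, against 6.16% of all genes), with a median of -0.04. Elf3, an ETS factor of epithelia, fell by 2.00 (SE 0.12, adjusted p = 1.84e-05), from 8.12, 8.21 and 8.28 to 6.36, 5.91 and 6.33. Ets2, an ETS factor needed for trophoblast stem cells, fell by 1.64 (adjusted p = 7.9e-05), and its highest lox/lox array, at 6.41, was far below its lowest wt/wt array, at 7.62. Id2, an inhibitor of basic helix-loop-helix factors, fell by 1.30 (adjusted p = 0.000203) and Klf5, a Krüppel-like factor of both early lineages, by 0.68 (adjusted p = 0.000742). Each of these 4 genes passed in all 6 fits without 1 array. Named after their values were seen, Sox21, Gata2 and Esrrb were the other genes that fell (log2 changes -0.87, -0.40 and -0.34), and Ascl2, a factor of placental progenitors, was the one that rose (0.55). Ascl2 missed the threshold when wt/wt replicate 2 was left out (adjusted p = 0.0688), and likewise for lox/lox replicate 1 (0.087), 2 (0.0866) or 3 (0.129). Gata2 did so when replicate 1 (0.05001) or 2 (0.0592) of wt/wt, or replicate 1 (0.0569) or 3 (0.0547) of lox/lox, was left out. Esrrb kept its call only without lox/lox replicate 3, with an adjusted p of up to 0.138 (without lox/lox replicate 2). With all probe sets tested 4 genes of this list fell and none rose.

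Of 16 measured paralogs of Cdx2, Gata3, Tfap2c, Eomes and Tead4, 1 fell and none rose. That share, 6.25%, was close to the 6.16% of all genes, and the median was 0.016. The one that fell was Gata2, and Tead2, Tfap2a and Tfap2d had log2 changes of -0.26, -0.23 and 0.15 (adjusted p = 0.124, 0.237 and 0.341). With array weights Tead2 passed as lower (adjusted p = 0.0474), and with all probe sets tested no paralog passed. Of the 21 FGF ligands and other receptors, 1 passed (4.76%, against 6.16% of all genes), the inner cell mass ligand Fgf4. It stood at 9.20, 9.13 and 9.18 in wt/wt and at 8.54, 8.53 and 8.73 in lox/lox cells, a log2 change of -0.57 (SE 0.08, adjusted p = 0.00253), opposite in sign to that of Fgfr2. Fgf3, Fgf17 and Fgf7 had log2 changes of -0.32, -0.19 and 0.20 and did not pass (adjusted p = 0.0554, 0.301 and 0.305). Fgf3 did pass under each of the 3 other scalings (adjusted p = 0.0261 to 0.0341), with dim genes removed (0.0337) and with array weights (0.0432).

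Of 13 genes known to hold down trophectoderm genes in ES cells, 12 had a negative log2 change, beside 10472 of all 19938 genes. All 13 lay above the median of all values in both genotypes, and with dim genes removed 1425 of 11400 genes passed. The median log2 change of the 13 was -0.16, and 3 passed, all as lower (23.1%, against 6.16% of all genes). These were Sox2 (log2 change -0.48, adjusted p = 0.0036), Nanog (-0.55, adjusted p = 0.00473) and Rnf2, a catalytic subunit of Polycomb complex 1 (-0.39, adjusted p = 0.0346). Rnf2 passed in only 1 of the 6 fits that left out an array, that without lox/lox replicate 1, with an adjusted p of up to 0.147 (without lox/lox replicate 2). Setdb1, a histone H3 lysine methyltransferase, had a log2 change of -0.32 (adjusted p = 0.0943), which passed without wt/wt replicate 1 (0.0241), with array weights (0.0413) and with a trended robust prior (0.0379), under which 6 genes of this list passed as lower. Pou5f1, which encodes Oct4, had a lox/lox mean of 11.86 and a wt/wt mean of 12.02 and did not pass (adjusted p = 0.275).

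Epithelial adhesion genes moved in both directions. Of 21 measured, 6 rose, 3 fell and 12 did not pass (42.9% called, against 6.16% of all genes), with a median of 0.025. Cldn6, a claudin of embryonic epithelia, rose by 1.66 (adjusted p = 0.000489). Epcam, an adhesion protein of epithelia and ES cells, rose by 0.79 (SE 0.12, adjusted p = 0.00324), from 6.98, 6.74 and 6.77 to 7.40, 7.60 and 7.85. Esrp1, a splicing factor of epithelial cells that favours the epithelial form of Fgfr2, rose by 0.78 (adjusted p = 0.0036), and the probe set of Fgfr2 does not tell its forms apart. Atp1b1, a sodium pump subunit used in blastocyst cavitation, fell by 0.60 (adjusted p = 0.0015). These 4 passed in all 6 fits without 1 array, and Esrp1 had an adjusted p of 0.0553 without both arrays that stood apart. The number that fell was 1, not 3, when replicate 2 or 3 of wt/wt or replicate 1 or 2 of lox/lox was left out, and without both arrays that stood apart, or with all probe sets tested, 3 rose and 1 fell. With dim genes removed 3 rose. Esrp1, and Cldn7 and Grhl2 described next, had a mean under the median of all values and were not tested there. Cldn7, a claudin, and Grhl2, an epithelial transcription factor, named after their values were seen, were among the genes that rose (log2 changes 0.39 and 0.40), but when arrays were left out singly each passed only once, Cldn7 with an adjusted p as high as 0.141 (without lox/lox replicate 2) and Grhl2 with 0.129 (without wt/wt replicate 2).

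Markers of other cell types stood beside these changes as follows. Of 15 listed genes of differentiated trophoblast 11 were measured, and Gcm1, Prl3d1, Prl2c2 and Prl3b1 were not. Of these 11 measured genes 4 lay above the median of all values in either genotype. In this list 1 rose and none fell (9.09% called, against 6.16% of all genes). Their summed linear intensity overlapped, at 610 to 759 in wt/wt and 724 to 827 in lox/lox arrays. The mean log2 level of the 11 genes did not overlap, at 4.791 to 4.948 in wt/wt and 4.957 to 4.990 in lox/lox arrays. The 1 that rose was Cdkn1c, an imprinted cell cycle inhibitor that other tissues also express (log2 change 1.04, adjusted p = 0.000751), while Tpbpa, a defining marker of spongiotrophoblast, stood at 3.10 and 2.92. Peg10 and Rhox6 had log2 changes of 0.56 and -0.30 (adjusted p = 0.254 and 0.288), and that of Peg10 was 0.20 without wt/wt replicate 1, its lowest array at 6.14. Of 10 primitive endoderm markers, 5 lay above the median in either genotype. Only the laminin gene Lamb1 rose (log2 change 0.78, adjusted p = 0.000378 in limma), a share of 10% against 6.16% of all genes. In the other 9 the arrays of the genotypes overlapped. The linear sums, which weigh bright genes such as Lamb1 most, were 351 to 422 in wt/wt and 456 to 490 in lox/lox arrays. The mean log2 level of the 10 markers overlapped, at 4.84 to 5.14 in wt/wt and 5.04 to 5.19 in lox/lox arrays. Hnf4a also passed without wt/wt replicate 1 (adjusted p = 0.0492, and 0.16 with all arrays), while Gata4 and Sox17 did not pass (log2 changes 0.27 and -0.11). Of 10 fibroblast markers, 5 lay above the median and none passed in limma, against 6.16% of all genes. An unadjusted p under 0.05 in limma was seen in 2 of the 10, against 18.0% of all genes. The fibroblast markers had sums of 316 to 371 in wt/wt and 338 to 371 in lox/lox arrays. Dcn, Twist1, Thy1 and Col3a1 had the smallest p (adjusted p = 0.175 to 0.502). The 10 ES cell markers summed to 16886 to 17901 in wt/wt and 13423 to 14942 in lox/lox arrays. All 10 lay above the median of all values, and with dim genes removed 1425 of 11400 genes passed. Lower were 5 of the 10 ES cell markers (50%, against 6.16% of all genes), Klf4 (log2 change -1.23), Nanog, Sox2, Fgf4 and Esrrb. Of these, Nanog, Sox2, Fgf4 and Esrrb are also counted in lists above. Dppa3, a marker of naive cells and the germ line that was named after its values were seen, had a log2 change of 0.53 that did not pass (adjusted p = 0.126). It passed as higher without lox/lox replicate 1 (0.00397), its lowest lox/lox array. The part of these cell types in the changes of the 10 genes was not tested.

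**Figure D4:**
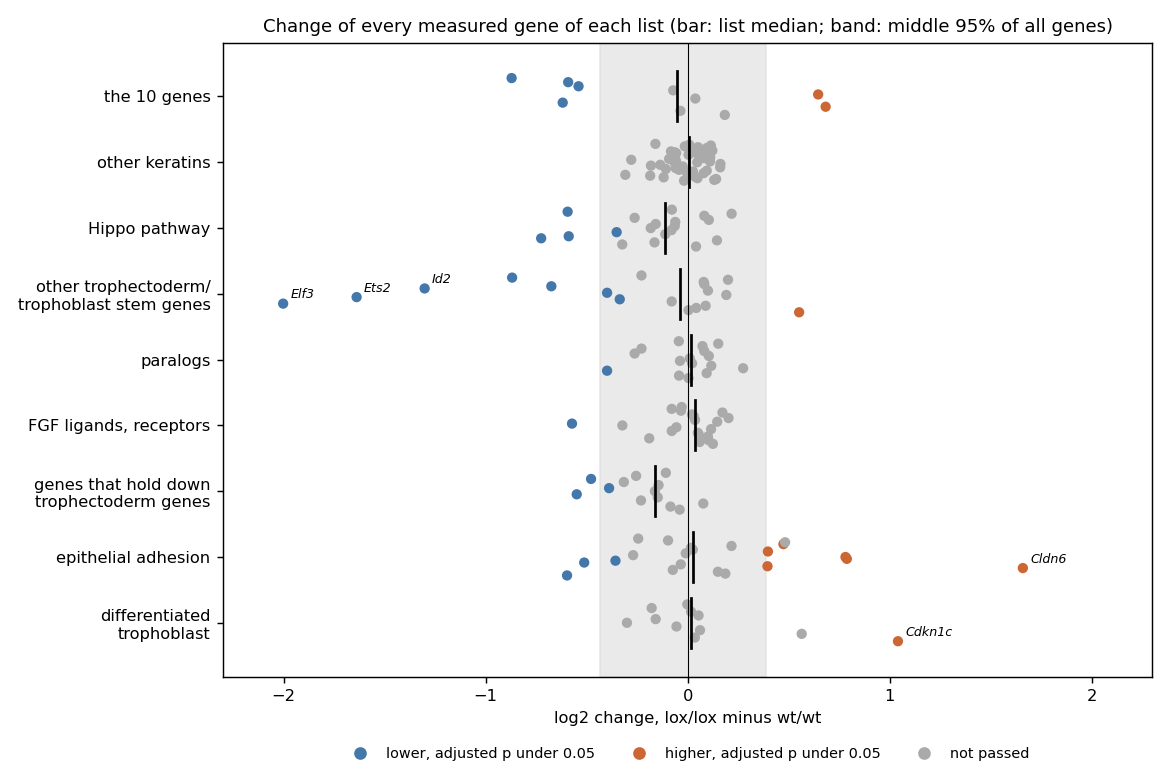
Log2 change of every measured gene of each list, lox/lox minus wt/wt; colours mark genes that passed in limma, black bars the list medians, and the grey band the middle 95% of all 19938 genes, from -0.44 to 0.39. Of the 10 genes, 6 lie outside the band, while all 45 other keratins lie inside it.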

How the data were processed

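The values used are the deposited log2 values of 35556 probe sets on 6 arrays. The authors made them with RMA and affy, according to the submitters' processing notes; tool versions and options: not given in the sources used here. RMA takes the total distribution to be alike on all arrays, so a global change of RNA per cell cannot be seen. Groups and replicate numbers come from the sample titles, and the design text calls the replicates biological.

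The platform annotation gave 1 symbol for 21789 probe sets. The brightest of these stood for each gene, which left 19938 genes. The genotypes were set against each other in limma 3.58.1 (R 4.3.3; lmFit, eBayes; 4 residual and 6.14 prior degrees of freedom), with Benjamini-Hochberg adjustment over all genes. In simulated arrays of the same comparison and 19938 genes, 200 of them changed, 88.1% of true log2 changes of 0.5 were recovered, and 5.42% of calls were false. The simulated noise was independent between genes and arrays. In the real arrays the first component held 41.2% of the variance within genotypes, so these rates need not hold for them.

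The 10 genes, the lists and the alternatives were chosen with earlier results of these data known. Named genes were the 10, Rad21, up to 4 of each list by p, and the 3 nearest to each changed gene; others are said to have been named after their values were seen. List names were matched by symbol, and 2 (Ccn1, Ccn2) through synonyms in the gene table of GRCm38.p6. Some genes stood in more than 1 list, among them Sox2, Nanog, Fgf4, Esrrb and Gata2, so counts of different lists are not independent. Genes without a probe set of 1 symbol were not analysed here. Alternatives were quantile normalization, median centring, cyclic loess, removal of dim genes, all probe sets, a trended robust prior, array weights, a replicate block, leaving out each array, and stricter thresholds. Leaving out both arrays that stood apart, and testing all probe sets with 1 symbol, were added after the data were seen.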

Additional observations from a re-analysis of the deposited data

How the results depend on the processing

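Fgfr2 and Tead4 passed under all alternatives tried, and the same 6 genes passed under quantile normalization, median centring, cyclic loess, removal of dim genes (which left out Eomes), array weights, a trended robust prior and all probe sets with 1 symbol. With all 35556 probe sets tested, 548 of the 19938 genes passed, and of the 10 genes 1 was higher and 1 lower; more tests and a less informative prior (2.90 against 6.14 degrees of freedom) go with this setting. At an adjusted p under 0.01, 553 genes passed, and of the 10 genes 1 was higher and 2 lower. With a change of at least 1.5-fold, 451 passed, and Plet1 was the 1 of the 6 lost. Without both arrays that stood apart, 697 passed, and of the 10 genes 1 was higher and 3 lower. With each array left out in turn, 626 to 1132 genes passed, against 1228 with all arrays, and of the 10 genes 1 to 2 were higher and 2 to 4 lower. Reversed signs were seen only in genes that did not pass: Eomes with array weights (0.0049), without lox/lox replicate 3 (0.021) and without both arrays that stood apart (0.043); Krt18 without both arrays (-0.015); Krt8 without replicate 1 of wt/wt (0.038) or of lox/lox (0.048); and Cdx2 without lox/lox replicate 1 (-0.073). With each array left out, Cdx2 ran from -0.073 to 0.34, Eomes from -0.090 to 0.021 and Krt8 from -0.21 to 0.048. The replicate block gave 1086 genes and the same 6 of the 10, and Dppa3 passed as higher under it (adjusted p = 0.0372). Deviations of same-numbered arrays had correlations of 0.10, -0.23 and -0.10. With only 3 such pairs, these values cannot show whether the numbers pair the samples. With 3 arrays per genotype, small changes of dim genes such as Eomes are poorly resolved.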
